A study of Drosophila melanogaster with 8 samples.

Results

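The genes described here run the cell division cycle and the copying of DNA. From a list of 39 gene symbols, a gene was taken when a probe set of the array carried that symbol alone, and the probe set with the highest mean over all 8 arrays stood for the gene. This gave 27 genes among 11982 named genes, with 7 of the passage from G1 into S phase, 11 of DNA replication and 9 of mitosis. The other 12 listed genes were not analysed here. They are E2f1, whose 1 probe set in the table is shared with Torsin, dap, geminin, Mcm7, RnrS, CycA, Cdk1, stg, Myt1, polo, aurA and BubR1. All 27 genes passed the filter on dim probe sets, and each was brighter in mean signal than at least 61.7% of the 17104 features of the array.

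The cells were S2, a Drosophila melanogaster line derived from embryonic blood cells, of genotype labelled wildtype. Double-stranded RNA was used to target either GFP, a jellyfish gene that flies lack and so the control, or DENR, a factor that acts with MCTS1 in re-initiation of translation after short upstream reading frames. Oligonucleotide arrays measured total RNA and the RNA of the monosome (80S) and polysome peaks (called ribosome-bound below) for both treatments, giving 4 groups of 2 arrays. Per the design text the arrays of a group are biological replicates, and each sample gave both kinds of RNA, but no time of treatment is named and nothing states that equal replicate numbers mark the same culture.

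Passage from G1 into S phase rests on cyclin D with Cdk4 and cyclin E with Cdk2, which phosphorylate the retinoblastoma protein Rbf and so release E2F factors from it. E2F with its partner Dp drives transcription of replication genes. The origin recognition complex and the Cdt1 protein, named dup in the fly, load the Mcm helicase. The B-type cyclins act in mitosis, and exit from mitosis needs the anaphase-promoting complex. The activators fzy and fzr direct that complex to cyclins and to securin, named pim in the fly. S2 cells divide continuously in culture, so that transcripts of all phases are present in 1 bulk sample. In such a sample, fewer cells in a phase and less RNA per cell cannot be told apart.

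The values are log2 signals made with RMA by the authors, and a difference of 1 is a 2-fold difference. RMA brings arrays to a common distribution of signals, so that values are relative to the other transcripts on the same array, also between total and ribosome-bound RNA. Signals of different probe sets were compared only to rank brightness, as for the filter, and to describe the marker genes, not to compare amounts of RNA. The array medians ran from 2.32 to 2.48. DENR itself read 8.28 and 8.18 in control total RNA, 7.38 and 7.60 in knockdown total RNA, 8.41 and 8.26 in control ribosome-bound RNA and 5.40 and 4.46 in knockdown ribosome-bound RNA. The knockdown arrays lay below the control arrays in both kinds of RNA, though the difference in total RNA (-0.74 ± 0.25, SE, n = 2 per group) did not pass the limma test (adjusted p = 0.170). On the first principal component, which held 65.8% of the variance, the first knockdown total RNA array lay at -9.0, between the other total RNA arrays (-27.3 to -35.1) and the ribosome-bound arrays (22.3 to 29.4). All 8 haemocyte markers were measured above the filter level. By the limma test, 4 of them (He, Hml, NimC1 and Sr-CI) fell on knockdown in each kind of RNA. Among all features, 0.702% fell when total RNA was compared, and the share was 0.692% on ribosomes. In total RNA, the knockdown arrays of 4 markers lay below the control arrays without overlap (21.5% of all features), and those of 1 lay above. On ribosomes 7 of the 8 markers lay lower in this way, against 23.8% of all features. The summed signal of all 8 on the log2 scale was 11.64 to 11.90 in control and 11.50 to 11.64 in knockdown total RNA. In ribosome-bound RNA it was 11.87 to 11.96 in control and 11.16 to 11.18 in knockdown. Markers of neurons and of the fat body were dim. The summed log2 signal was 4.42 to 5.08 for 3 genes of neurons and 3.68 to 4.15 for 3 genes of the fat body. The filter lay at a mean of 2.12 per gene. Of the listed markers, Mhc, Mef2 and wupA of muscle, Syt1 of neurons and nos of the germline had no probe set carrying that symbol alone. Of the germline markers, vas read 1.52 to 1.96 and aub 7.82 to 8.45. The part of these levels in the results below was not tested.

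**Figure D1:**
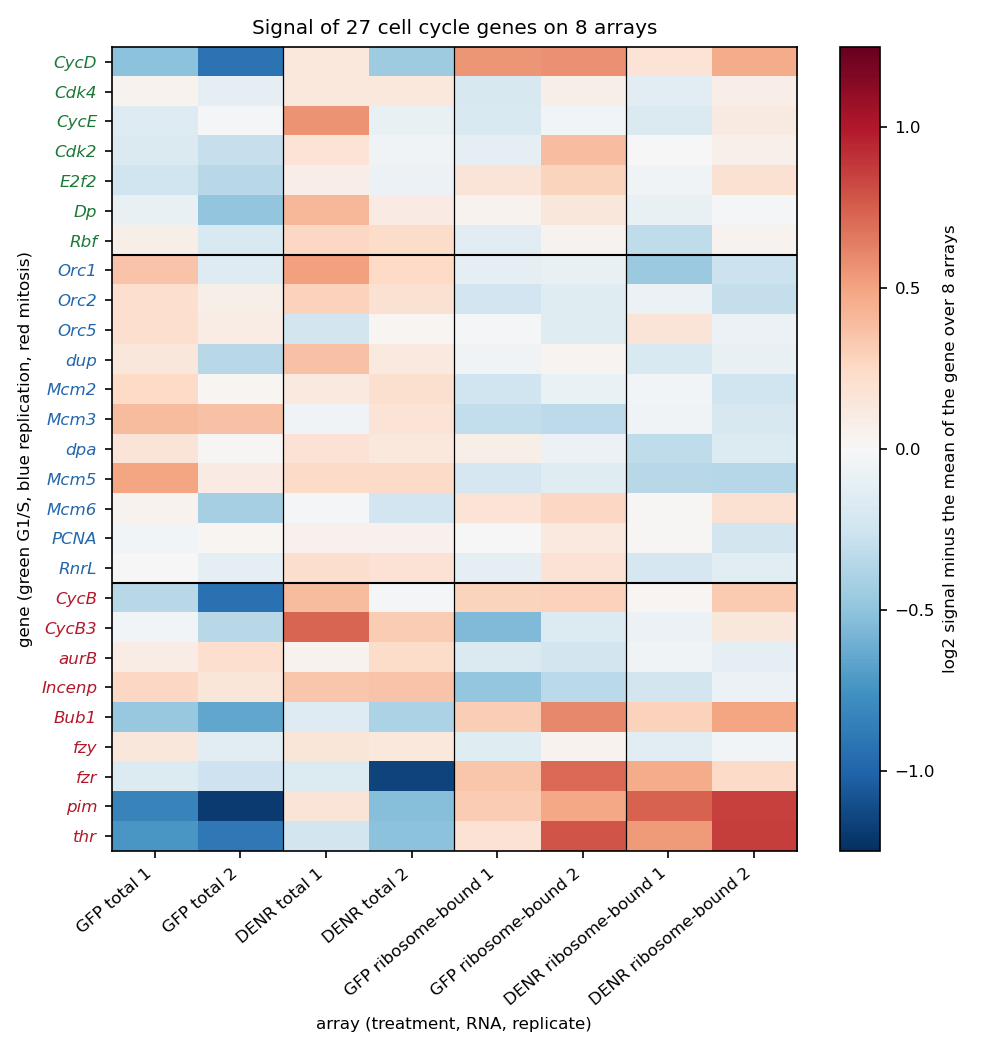
Signal of the 27 genes (rows, by phase) on the 8 arrays (columns), shown as the log2 signal minus the mean of the gene over all arrays. The G1/S and mitosis genes CycD, CycB, Bub1, pim and thr are lowest on the control total RNA arrays, while for Mcm3, Mcm5 and Incenp every total RNA array lies above every ribosome-bound array.

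The genes differed in how far their signal moved over the 8 arrays. The smallest range was that of fzy, from 7.84 to 8.14 on the log2 scale, followed by those of Cdk4 (7.10 to 7.43) and of PCNA (7.99 to 8.34), the sliding clamp of DNA polymerase. The largest was that of pim, from 4.41 to 6.46. Of the 7 genes whose range was above 1, 6 belong to mitosis (Bub1, CycB3, CycB, thr, fzr and pim) and 1 to G1/S (CycD), and none to replication.

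The comparison of DENR knockdown with control in total RNA asked whether levels of these mRNAs changed. None of the 27 genes passed the test, 0 higher and 0 lower, where 1.58% of the 10262 features tested did so, 0.877% higher and 0.702% lower (limma, Benjamini-Hochberg adjusted p under 0.05 over all features). At an unadjusted p under 0.05, 5 of the 27 were higher (CycD, Dp, CycB, CycB3 and pim) and 1 was lower (Mcm3), against 11.6% of features higher and 5.99% lower. The differences of 22 genes were above 0, as were 52.6% of all features, and the median was 0.25 for the 27 genes against 0.02 for all features. By phase the median was 0.31 for G1/S, 0.06 for replication and 0.28 for mitosis.

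The smallest p-values in total RNA belonged to 3 genes of mitosis. CycB, a mitotic cyclin that activates Cdk1, read 8.10 and 7.52 in control cells, then 8.85 and 8.43 after knockdown. Both knockdown arrays thus lay above both control arrays, by 0.82 ± 0.21 on average (SE, n = 2 per group, adjusted p = 0.0908 by limma). For pim, the securin that holds separase inactive until anaphase, the arrays read 4.77 and 4.41 against 5.77 and 5.07, a difference of 0.83 ± 0.22 (adjusted p = 0.0925 by limma). CycB3, the other B-type cyclin of the list, read 5.94 and 5.63 against 6.70 and 6.30, a difference of 0.71 ± 0.19 (adjusted p = 0.101 by limma). In all 3 genes the first knockdown array, the one that stood apart, was the higher of its pair.

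Single arrays bear on these values. Without the second knockdown total RNA array, CycD, CycB, CycB3 and pim passed the limma test. The first array, which stood apart, was then the only one of its group and was assumed to vary like the other groups. Without the first, no gene of the 27 passed, and the median fell from 0.25 to 0.15, that of mitosis from 0.28 to 0.17 and that of G1/S from 0.31 to 0.23. Without the second control total RNA array, the median of the 27 genes was 0.09 and that of replication -0.0030. The difference of CycB was 0.53 without that control array, and that of pim was 0.49 without the first knockdown array. Between the knockdown total RNA arrays, 19 of 27 genes were higher on the first, with a median of 0.16 against -0.01 for all features. Between the control total RNA arrays 24 of 27 were higher on the first, with a median of 0.17 against 0.06. In ribosome-bound RNA the first array was the higher for only 4 control and 8 knockdown genes.

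Among G1/S genes, the 7 differences in total RNA ran from 0.17 for Cdk4 to 0.56 for CycD, with all 7 above 0 and the arrays of 6 not overlapping. For all features, 24.5% had knockdown arrays that lay above the control arrays without overlap. CycD read 4.46 and 4.04 in control cells, then 5.10 and 4.53 after knockdown (0.56 ± 0.21, adjusted p = 0.206 by limma). Dp, the partner of E2F, read 6.22 and 5.83 in control cells, then 6.73 and 6.42 after knockdown (0.55 ± 0.17, adjusted p = 0.134 by limma). Rbf, which restrains E2F, differed by 0.30 ± 0.16, and E2f2, a repressive E2F of the fly, by 0.31 ± 0.14. Cdk2 (0.29 ± 0.17) and CycE (0.32 ± 0.21) had differences of like size, and of the 7 genes CycE alone had overlapping arrays.

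Replication genes lay on both sides of 0 in total RNA. Of 11, the arrays of 2 lay higher without overlap (PCNA and RnrL, the large subunit of ribonucleotide reductase, which makes deoxynucleotides) and those of 2 lay lower (Orc5 and Mcm3), while 21.5% of all features lay lower in this way. Mcm3, a subunit of the replicative helicase, read 9.56 and 9.53 in control cells, then 9.12 and 9.34 after knockdown, a difference of -0.31 ± 0.14 (adjusted p = 0.268 by limma). The other helicase subunits measured, Mcm2, dpa (the fly Mcm4), Mcm5 and Mcm6, differed by -0.06 to 0.07. Orc5, of the origin recognition complex, differed by -0.25 ± 0.15, whereas Orc1 and Orc2 of the same complex differed by 0.28 ± 0.18 and 0.09 ± 0.14. The arrays of Orc1 overlapped, at 6.25 and 5.73 in control cells, then 6.41 and 6.15 after knockdown. The licensing factor dup differed by 0.35 ± 0.17. In mitosis, fzr read 3.34 and 3.25 in control cells, then 3.33 and 2.34 after knockdown, so that its difference of -0.45 ± 0.27 came from 1 array.

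**Figure D2:**
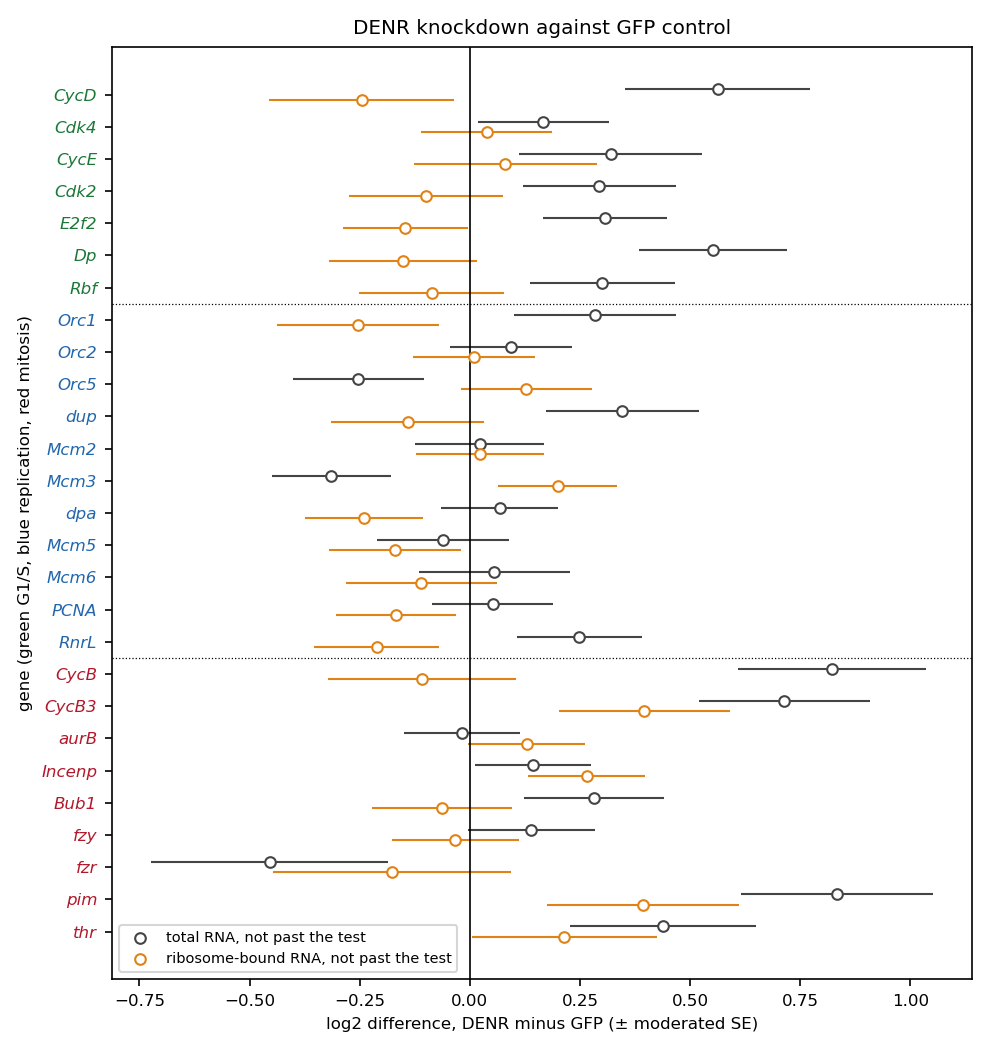
Difference between DENR knockdown and GFP control for each gene (rows, by phase) in total RNA (grey) and ribosome-bound RNA (orange), as log2 values with moderated standard errors. All points are open because no gene passed the test in either kind of RNA, and the 7 G1/S genes lie between 0.17 and 0.56 in total RNA and between -0.24 and 0.08 in ribosome-bound RNA.

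In ribosome-bound RNA the question was whether the knockdown changed the amount of these mRNAs on ribosomes. Again 0 of the 27 genes passed the limma test, against 1.34% of features, and 0 passed at an unadjusted p under 0.05, against 13.2% of features. The median was -0.09 for the 27 genes and -0.0025 for all features, and 11 genes lay above 0 (49.4% of all features) and 16 below (50.6%). By phase the median was -0.10 for G1/S, -0.14 for replication and 0.13 for mitosis. Leaving out 1 array turned the sign of 2 of these medians, not that of replication. Without the first control array the mitosis median was -0.09, and without the second the G1/S median was 0.0068 and that of the 27 genes 0.06. The largest differences were those of CycB3 (0.40 ± 0.19, adjusted p = 0.427 by limma) and pim (0.39 ± 0.22, adjusted p = 0.505 by limma).

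CycB3 gave 5.42 and 5.80 in control cells, then 5.90 and 6.12 after knockdown, and pim gave 5.92 and 6.09 against 6.34 and 6.46. Incenp, the scaffold of the chromosomal passenger complex that positions aurB kinase, read 8.61 and 8.76 against 8.87 and 9.03 (0.26 ± 0.13, adjusted p = 0.442 by limma). In each of these genes the knockdown arrays lay above the control arrays, as they did for 4 of 9 mitosis genes and for 23.3% of all features. CycB, by contrast, read 8.73 and 8.75 in control cells, then 8.48 and 8.78 after knockdown, which overlapped. The 95% interval of its difference ran from -0.58 to 0.37, and that of PCNA from -0.47 to 0.14, so that a change within those limits could not be told from 0 with 2 arrays a group.

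Of the G1/S genes in ribosome-bound RNA, the knockdown arrays of CycD (5.14 and 5.43 against 5.52 and 5.53) and Dp (6.22 and 6.29 against 6.36 and 6.46) lay below the control arrays. For replication genes this held for 5 of 11 (Orc1, dup, dpa, Mcm5 and RnrL), against 23.8% of all features, with differences from -0.25 for Orc1 to -0.14 for dup. Mcm3 was the 1 replication gene with knockdown arrays above the control arrays, at 9.12 and 8.96 against 8.85 and 8.83 (0.20 ± 0.14). None of these differences passed the test.

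Ribosome loading, the ribosome-bound difference on knockdown less the total RNA difference, was tested as an interaction. It called 0 of 27 genes, and 0% of all features, by limma after Benjamini-Hochberg correction. Even DENR, the targeted gene, did not pass, at -2.66 ± 0.35 (adjusted p = 0.101 by limma). At an unadjusted p under 0.05, 5 of the 27 were lower (CycD, E2f2, Dp, RnrL and CycB) and 1 higher (Mcm3), against 6.71% and 3.24% of all features. The loading difference lay below 0 for 21 genes, among them all 7 of G1/S, and for 52.6% of all features. Its median was -0.24 for the 27 genes and -0.02 for all features, with -0.39 for G1/S, -0.17 for replication and -0.22 for mitosis. Leaving out single arrays moved the median of the 27 genes between -0.39 (without the second knockdown ribosome-bound array) and -0.13 (without the first knockdown total RNA array). The ranges were -0.57 to -0.29 for G1/S, -0.30 to -0.02 for replication and -0.49 to -0.08 for mitosis, all below 0.

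CycB had the smallest p for loading among the genes, with a difference of -0.93 ± 0.30 (95% interval -1.60 to -0.26, adjusted p = 0.480 by limma). It was made of 0.82 in total RNA against -0.11 on ribosomes. Dp followed at -0.70 ± 0.24 and CycD at -0.81 ± 0.30 (both adjusted p = 0.480 by limma), and in both the difference in total RNA (0.55 and 0.56) was larger in size than that in ribosome-bound RNA (-0.15 and -0.24). Mcm3 went the other way, at 0.51 ± 0.19, with -0.31 in total RNA against 0.20 on ribosomes. The loading comparison uses the same arrays as the knockdown comparisons above, and is not independent of them. Without the first knockdown total RNA array, the loading difference of CycB was -0.72, of Dp -0.55 and of CycD -0.52. Leaving out the second control total RNA array brought CycB to -0.64 and Dp to -0.51.

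The comparison of ribosome-bound with total RNA in control cells asked which of these transcripts were relatively enriched on ribosomes. Here 6 of the 27 genes were higher in ribosome-bound RNA and 3 were lower, while 18 did not pass, against 29.6% of all features called. The genes that were higher were CycD and E2f2 of G1/S and CycB, Bub1, pim and thr of mitosis. Those that were lower were Mcm3 and Mcm5 of replication and Incenp of mitosis. Over all features 18.7% were higher and 11% lower by the same limma test (1915 and 1125, or 2039 and 711 with array medians centred). The median was 0.01 for the 27 genes and -0.04 for all features, the latter 0.06 with medians centred. By phase it was 0.36 for G1/S, -0.21 for replication and 0.74 for mitosis. Of the 9 mitosis genes 5 lay above 0 and 4 below, against 45.5% and 54.5% of all features. The mitosis median is the value of 1 gene, fzr, which did not pass. The 39 further mitosis genes described below had a median of 0.19. Leaving out the second control ribosome-bound array brought G1/S to 0.11, and leaving out the second control total RNA array brought it to 0.19. Replication was at -0.02 without the first control total RNA array, while mitosis stayed between 0.56 and 0.92. The median of the 27 genes ran from -0.11 to 0.11.

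The largest enrichment was that of pim, which read 4.77 and 4.41 in total RNA, then 5.92 and 6.09 on ribosomes. The difference was 1.42 ± 0.22 (SE, n = 2 per group, adjusted p = 0.00116 by limma), a 2.67-fold enrichment. The separase complex subunit thr, which in the fly works with separase to part sister chromatids, read 3.24 and 3.08 against 4.15 and 4.76, a 2.45-fold enrichment (1.29 ± 0.21, adjusted p = 0.00158 by limma). Securin and its partner in the separase complex were therefore both higher in ribosome-bound RNA, each without overlap of the arrays. Bub1, a kinase of the spindle assembly checkpoint, read 4.76 and 4.58 against 5.54 and 5.83 (1.01 ± 0.16, 2.02-fold, adjusted p = 0.00134 by limma). CycB read 8.10 and 7.52 against 8.73 and 8.75 (0.93 ± 0.21, 1.90-fold, adjusted p = 0.00890 by limma), and the spread of its total RNA arrays was larger than that of its ribosome-bound arrays.

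CycD, the cyclin that activates Cdk4, read 4.46 and 4.04 in total RNA, then 5.52 and 5.53 on ribosomes, a 2.42-fold enrichment (1.28 ± 0.21, adjusted p = 0.00167 by limma). Its kinase Cdk4 read 7.35 and 7.18 against 7.10 and 7.38, and its arrays overlapped (-0.03 ± 0.15). E2f2 read 7.50 and 7.41 against 7.91 and 8.03 (0.52 ± 0.14, adjusted p = 0.0202 by limma). CycE (-0.02 ± 0.21), its kinase Cdk2 (0.36 ± 0.17), Dp (0.39 ± 0.17) and Rbf (0.01 ± 0.16) did not pass, and the 95% interval for CycE ran from -0.49 to 0.44. Outside G1/S, the difference of fzr was 0.74 ± 0.27, from 3.34 and 3.25 to 3.85 and 4.21, which missed the threshold (adjusted p = 0.0640 by limma).

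On the lower side, Mcm3 read 9.56 and 9.53 in total RNA, then 8.85 and 8.83 on ribosomes, 1.63-fold lower (-0.70 ± 0.14, adjusted p = 0.00357 by limma). Incenp read 9.36 and 9.25 against 8.61 and 8.76, 1.54-fold lower (-0.62 ± 0.13, adjusted p = 0.00617 by limma). Mcm5 read 8.35 and 7.97 against 7.65 and 7.71, 1.39-fold lower (-0.48 ± 0.15, adjusted p = 0.0358 by limma). The 5 helicase subunits measured did not move alike. Mcm2 (-0.30 ± 0.15), dpa (-0.09 ± 0.13) and Mcm6 (0.40 ± 0.17) did not pass, and Mcm6 had ribosome-bound arrays above its total RNA arrays (8.80 and 8.88 against 8.67 and 8.21). All 3 subunits of the origin recognition complex lay below 0, from -0.34 for Orc2 to -0.21 for Orc1, none past the test.

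Of these 9 genes, CycD, Mcm3, Bub1, pim and thr passed under each of the 19 alternatives. Mcm5 passed under 11, and lost the call without the first control total RNA array (-0.29) among others. E2f2 and CycB lost it when either second array of the controls, total or ribosome-bound, was left out. E2f2 and Incenp lost it in the absence of the first control ribosome-bound array.

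**Figure D3:**
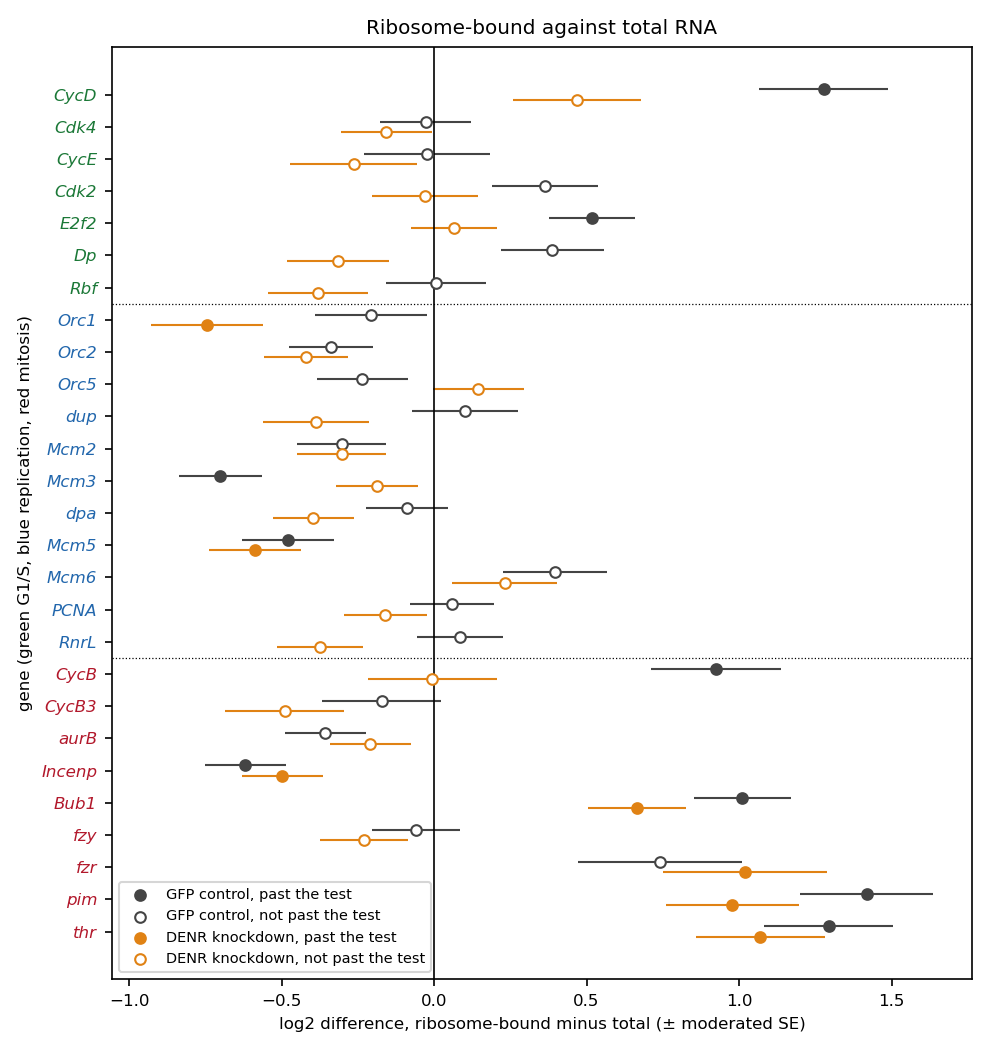
Ribosome-bound minus total RNA for each gene (rows, by phase) in GFP control (grey) and DENR knockdown (orange) cells, as log2 differences with moderated standard errors. Filled points passed the test, 9 in control cells and 7 in knockdown cells, and CycB lies at 0.93 in control cells and at -0.01 in knockdown cells.

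After DENR knockdown the same comparison of ribosome-bound with total RNA called 7 of the 27 genes, 4 higher and 3 lower, against 15% of all features (9.13% higher and 5.85% lower). The 4 that were higher were all mitosis genes, namely Bub1, fzr, pim and thr. Those that were lower were Orc1 and Mcm5 of replication and Incenp of mitosis. With array medians centred, the 7 became 3, all higher (Bub1, pim and thr). The median was -0.21 for the 27 genes against -0.02 for all features. By phase it was -0.16 for G1/S, -0.37 for replication and -0.01 for mitosis, the last being the value of CycB. Of the 9 mitosis genes 4 lay above 0 and 5 below, against 46.6% and 53.4% of all features. With single arrays left out, replication stayed between -0.39 and -0.31. G1/S ran from -0.26 without the second knockdown ribosome-bound array to 0.07 without the first knockdown total RNA array, and mitosis from -0.16 to 0.20 without the same arrays.

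In knockdown cells thr read 3.74 and 3.46 in total RNA, then 4.50 and 4.84 on ribosomes (1.07 ± 0.21, 2.10-fold, adjusted p = 0.00827 by limma). For pim the values were 5.77 and 5.07 against 6.34 and 6.46 (0.98 ± 0.22, 1.97-fold, adjusted p = 0.0146 by limma). Bub1 read 5.07 and 4.84 against 5.52 and 5.72 (0.67 ± 0.16, 1.59-fold, adjusted p = 0.0200 by limma). These 3 genes were thus enriched on ribosomes in both treatments, each with ribosome-bound arrays above the total RNA arrays. The activator fzr read 3.33 and 2.34 against 3.96 and 3.75 (1.02 ± 0.27, 2.03-fold, adjusted p = 0.0303 by limma), but leaving out the second total RNA array of the knockdown brought this to 0.53, which did not pass.

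Orc1, the largest subunit of the origin recognition complex, read 6.41 and 6.15 in knockdown total RNA and 5.44 and 5.63 in ribosome-bound RNA (-0.75 ± 0.18, 1.68-fold lower, adjusted p = 0.0223 by limma). Mcm5 read 8.10 and 8.10 against 7.52 and 7.50 (-0.59 ± 0.15, adjusted p = 0.0257 by limma), and Incenp read 9.44 and 9.46 against 8.87 and 9.03 (-0.50 ± 0.13, adjusted p = 0.0310 by limma). Ribosome-bound arrays lay below total RNA arrays for 9 of the 11 replication genes, against 28.7% of all features, and above them for Mcm6 alone. The remaining gene, Orc5, had overlapping arrays.

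The calls in knockdown cells rested on single arrays. Of the ribosome-bound arrays of the knockdown, leaving out the second gave 0 calls and leaving out the first gave 1 (thr). Of its total RNA arrays, leaving out the second gave 2 (Orc1 and thr) and leaving out the first gave 5. The 5 were CycD, Bub1, fzr, pim and thr, none of them lower.

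Set side by side, pim, thr and Bub1 were called higher and Mcm5 and Incenp lower in both treatments. The 3 shared higher genes were 50% of those called in control cells and 75% of those called in knockdown cells, where over all features the 864 shared were 45.1% and 92.2%. The 2 shared lower genes were 66.7% of either list, and over all features the shares were 34.8% and 65.2%. The 2 comparisons use different arrays, though both rest on the spread pooled over all groups. CycD, E2f2, CycB and Mcm3 were called only in control cells, and Orc1 and fzr only in knockdown cells. The test of that difference is the loading interaction, which none of these genes passed. No feature passed it, DENR included, so a failure to pass does not show that the treatments were alike.

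CycB shows the size of such a gap. Its ribosome-bound minus total difference was 0.93 ± 0.21 in control cells and -0.01 ± 0.21 in knockdown cells, with knockdown total RNA arrays at 8.85 and 8.43 lying close to all 4 ribosome-bound arrays (8.48 to 8.78). For CycD the differences were 1.28 ± 0.21 and 0.47 ± 0.21, and for E2f2 0.52 ± 0.14 and 0.06 ± 0.14. For Mcm3 they were -0.70 ± 0.14 and -0.19 ± 0.14.

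**Figure D4:**
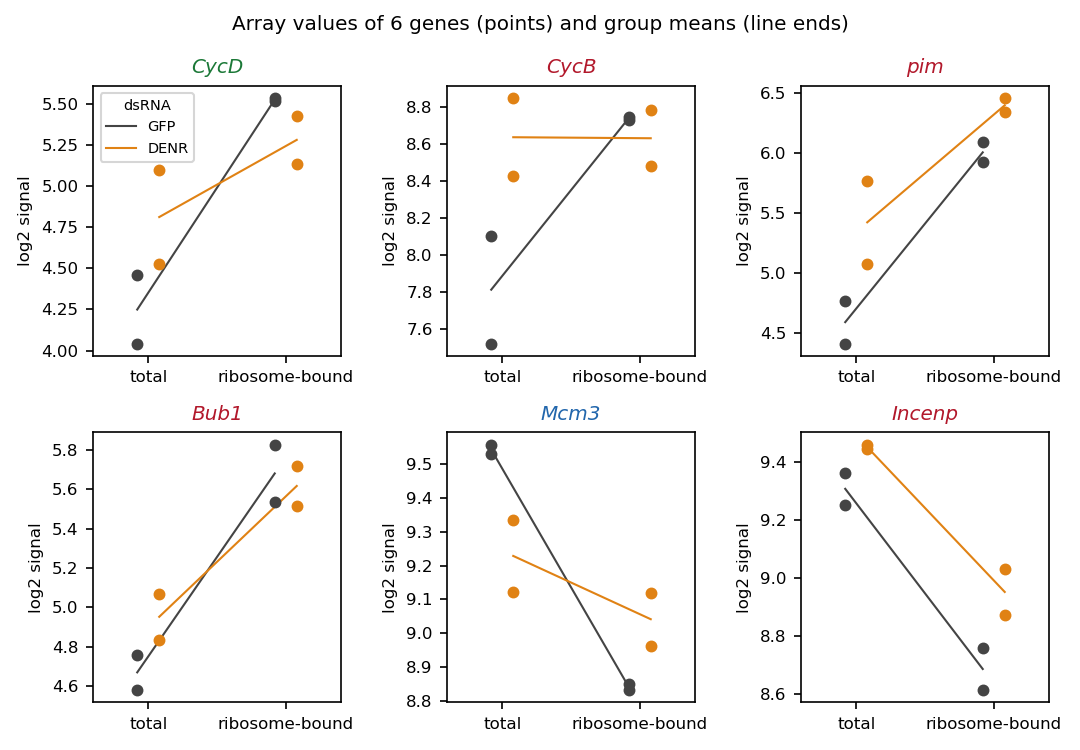
Log2 signal of 6 genes in total and ribosome-bound RNA (horizontal axis) of GFP control (grey) and DENR knockdown (orange) cells, with points for arrays and lines joining group means. In CycB and CycD the control line changes by 0.93 and 1.28 and the knockdown line by -0.01 and 0.47, while in pim and Bub1 both lines climb and in Incenp both descend.

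Further genes of the cell cycle were taken from a list of 107, of which 94 were tested. In total RNA, 2 of these rose on knockdown, 0 fell and 92 did not pass, against 0.877% of all features higher and 0.702% lower. The 2 were gwl, the Greatwall kinase that keeps a mitotic phosphatase inactive, and the checkpoint protein mad2. The signal of gwl was 3.09 and 3.12 in control cells, then 4.34 and 3.97 after knockdown (1.05 ± 0.16, 2.07-fold, adjusted p = 0.0144 by limma). For mad2 the values were 6.82 and 6.84 against 7.62 and 7.39 (0.68 ± 0.14, 1.60-fold, adjusted p = 0.0476 by limma). Neither passed without the first knockdown total RNA array or without either control total RNA array. Of 19 alternatives, gwl passed under 15 and mad2 under 6, and mad2 lost the call without any array but the second knockdown total RNA array.

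By phase, the median differences of the further genes in total RNA were 0.28 for 39 mitosis genes, 0.08 for 10 G1/S genes, 0.02 for 13 checkpoint genes and 0.01 for 32 replication genes. The median of all features was 0.02. Of the 39 mitosis genes, 35 lay above 0, against 52.6% of all features. Fits without single arrays were not summarised for these medians and this count, which rest on the same total RNA arrays as above. In ribosome-bound RNA 0 of the 94 passed, against 1.34% of all features, with a median of 0.06. At an unadjusted p under 0.05, 9 were higher and 6 lower, against 6.38% and 6.77% of all features. Ribosome loading called 0 of the 94 and 0% of all features, with a median of -0.08. At an unadjusted p under 0.05, 2 were higher and 11 lower, against 3.24% and 6.71% of all features. Among the lower, 10 were mitosis genes, a count likewise not summarised without single arrays. Of the 10 further G1/S genes, 6 had a loading difference below 0, against 52.6% of all features, with a median of -0.09.

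In control cells, 30 of the 94 further genes were higher in ribosome-bound than in total RNA and 8 were lower, against 18.7% and 11% of all features. Leaving out single arrays gave 21 to 32 higher and 1 to 9 lower, and centring array medians gave 30 and 3. Leaving out the first ribosome-bound array of the controls gave 4 lower, the second gave 1, and the first total RNA array of the controls gave 2. Of 39 mitosis genes 14 were higher and 2 lower, of 32 replication genes 10 and 6, of 13 checkpoint genes 5 and 0, and of 10 G1/S genes 1 and 0. Spc105R, the kinetochore scaffold that recruits Bub1 and BubR1, read 4.24 and 4.18 in total RNA, then 6.41 and 7.01 on ribosomes, a 5.66-fold enrichment (2.50 ± 0.19, adjusted p = 4.14e-05 by limma). Mcm10, which helps to activate the helicase, was 3.89-fold higher (1.96 ± 0.30), and PolA1, the catalytic subunit of DNA polymerase alpha, 3.22-fold higher (1.69 ± 0.17). PolA2 and Prim2, subunits of that same polymerase and primase complex, were instead lower, by -0.70 ± 0.16 and -0.74 ± 0.14. Prim1, also of that complex, had ribosome-bound arrays (6.19 and 5.91) above its total RNA arrays (5.42 and 4.95). Psf1 of the GINS complex was lower (-0.80 ± 0.22). PolA2 lost its call without the second control ribosome-bound array. Psf1 lost its call without that array too, at -0.48, and when the first total RNA array of the controls was left out.

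In knockdown cells 20 of the 94 further genes were higher and 4 lower, against 9.13% and 5.85% of all features. Centring array medians gave 17 and 1. When the second total RNA array of the knockdown, or either of its ribosome-bound arrays, was left out, 9 were higher, and leaving out any of its 4 arrays gave 0 to 2 lower. SAK, the fly Plk4 kinase of centriole duplication, read 3.07 and 2.02 in total RNA, then 4.40 and 4.34 on ribosomes. One of its total RNA arrays lay below the filter level of 2.12, so no fold is given for its difference of 1.83 ± 0.27. Spc105R was higher by 1.81 ± 0.19 on the log2 scale and Cks30A, a cyclin-dependent kinase subunit, by 1.52 ± 0.25, and all 3 passed under each of the 19 alternatives. The lowest were shtd, a subunit of the anaphase-promoting complex (-0.72 ± 0.17), the kinesin Klp10A (-0.70 ± 0.18) and tum, a regulator of cytokinesis (-0.68 ± 0.18), and none of these passed when either first array of the knockdown, total or ribosome-bound, was left out. Of the 13 checkpoint genes 5 were higher and 0 lower, the counts also found in control cells.

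**Figure D5:**
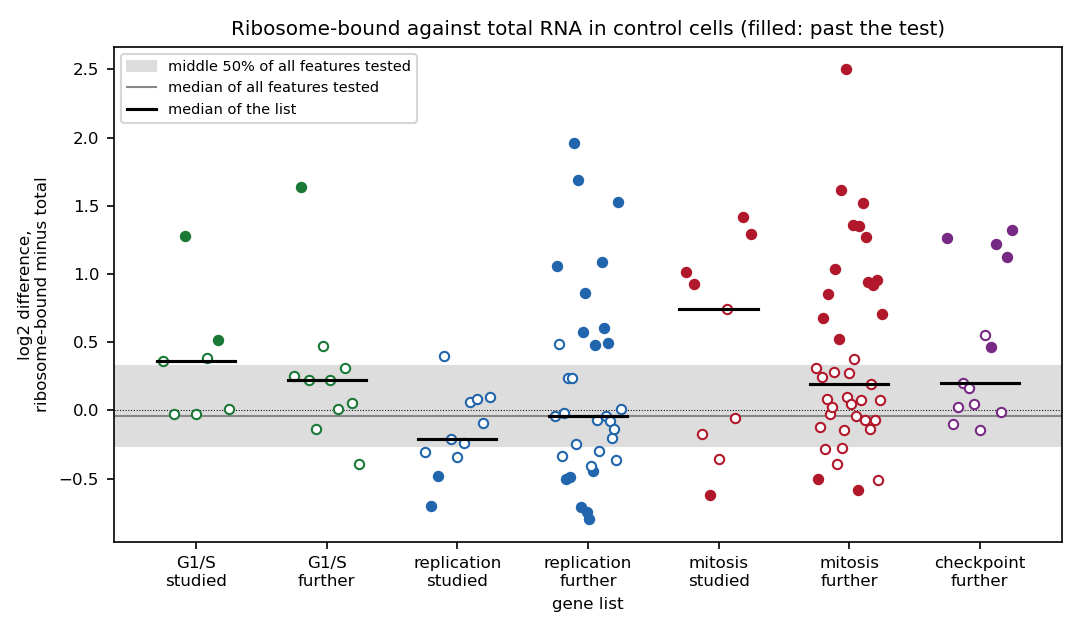
Control cells only: log2 difference of ribosome-bound from total RNA for the 27 genes (studied) and the 94 further genes by phase, with filled points for genes past the test and black bars for list medians. The grey band holds the middle 50% of all 10262 features tested, and 9 studied and 38 further genes are filled.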

How the data were processed

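The submitters' processing notes name RMA as the authors' source of the deposited log2 signals, which cover 18952 probe sets on 8 arrays. Its values ran from 0.83 to 12.88, and the software version and whether all arrays were normalized jointly are not given in the sources used here. After 183 control probe sets were removed, the platform annotation gave 1 gene symbol for 13647 probe sets, several for 402 and none for 4720. Symbols were updated from RefSeq for the 13544 probe sets that matched. Gene symbols decided membership, and probe sets of the s type (CycD, Cdk4, CycE, Cdk2 and fzr here) can also detect related transcripts. Each gene was represented by its brightest probe set, and the brightest 60% of features (10262) were tested. Differences were fitted in limma 3.58.1 (R 4.3.3) as 4 group means with empirical Bayes moderation (4 residual degrees of freedom, 5.93 prior). The 5 two-sided contrasts were adjusted by Benjamini-Hochberg over all features and called at 0.05. The ± values are moderated standard errors, with 2 arrays per group, a number that limits the precision. The p-values measure the spread between these arrays. The code was tested on simulated data.

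The genes and lists were chosen with earlier results of these data known, so that their shared directions are descriptions. Named with array values were DENR, up to 4 called genes per direction, or the 3 of smallest p, and the brightest and dimmest of each phase. Up to 3 further genes were named per direction, and Prim1 was added after seeing the data. Alternatives changed the block, filter, probe set rule, normalization, moderation and the arrays fitted, and left out each array in turn. A crossed block was added after seeing the data.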

Additional observations from a re-analysis of the deposited data

How the results depend on the processing

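The counts of the 27 genes called in ribosome-bound RNA and for loading were 0 under every alternative run, and the count for ribosome-bound against total RNA in control cells stayed between 6 and 13 around its 9. The other counts moved. In total RNA the 0 became 1 when the prior was robust and followed intensity, and leaving out single arrays gave 0 to 4. In knockdown cells the 7 became 4 with a random block that took equal replicate numbers of a treatment as the same culture. Nothing states that equal numbers mark the same culture, so this fit does not show the effect of the true cultures. With array medians centred the 7 became 3, and leaving out single arrays gave 0 to 7. The cause was not tested. No direction of a called gene reversed. Same-numbered arrays correlated in their deviations within total RNA (r = 0.38) and within ribosome-bound RNA (r = 0.27). Between total and ribosome-bound RNA the correlations were negative (-0.38 to -0.20), so the main fit did not take the numbers to pair samples. With the replicate block the counts were 0, 0, 0, 9 and 6 in the order total, ribosome-bound, loading, control and knockdown. With numbers crossed between total and ribosome-bound arrays, an alternative chosen after seeing the data, they were 5, 0, 0, 13 and 12. Over all features, the 90 called higher in total RNA on knockdown ranged from 16 to 391 and the 72 lower from 23 to 106 when single arrays were left out. Those ranges were 11 to 100 and 12 to 112 in ribosome-bound RNA (67 and 71), 1162 to 2038 and 510 to 1213 in control cells (1915 and 1125), and 422 to 1115 and 158 to 631 in knockdown cells (937 and 600). Under the other alternatives the 90 and 72 ranged from 20 to 659 and from 26 to 244, the 67 and 71 from 44 to 193 and from 37 to 220. With array medians centred, 868 were higher and 371 lower in knockdown cells.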
